A study of Mus musculus with 6 samples.

Results

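Genes for protein entry into the endoplasmic reticulum (ER) were compared in colon epithelium of mice with and without Sel1L, the adaptor of the ubiquitin ligase Hrd1 that sends misfolded ER proteins to degradation. The set held 34 genes, taken by symbol, for the signal recognition particle (SRP) and its receptor, the SEC61 channel and its partners, the TRAP complex, signal peptidase, the ER membrane protein complex (EMC) and the GET pathway. Each gene was read from the probe set that names it alone and is the brightest on average over the 6 arrays. This left 31 measured genes among 19936 in the whole table. Sec61g, Srp54a and Emc1 were named only by probe sets that also list other genes, and no value is given for them. Camlg is called Caml in the RefSeq gene table and was matched as its synonym.

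Affymetrix arrays of labelled cDNA were hybridised for 3 wild type and 3 knockout samples of colon epithelium from male mice aged 8 weeks. Both genotypes are labelled as strain C57BL/6J. The knockout (Sel1L-delta-IEC) derives from Sel1Lflox/flox mice, with loxP sites around exon 6 and the lacZ-neo cassette removed by βActin-FLPe. These were crossed to mice with Cre under the villin-1 promoter, which is active in intestinal epithelium, and the Cre line had been backcrossed to C57BL/6J. Whether wild type mice carried the floxed allele or were littermates is not stated, nor is it stated that the 6 arrays came from 6 different mice, so p-values measure only the spread between these arrays.

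Secretory and membrane proteins are recognised by their signal sequence as they leave the ribosome, and SRP brings the ribosome to its receptor on the ER. The chain then passes through SEC61, helped by TRAP, TRAM and the SEC62 and SEC63 proteins, and signal peptidase cuts off the signal sequence. EMC inserts many transmembrane segments, and the GET pathway delivers proteins anchored by their tail. Goblet cells and absorptive cells of the colon rely on this machinery to make mucins, transporters and receptors. In cells under ER stress, many of these genes are known targets of the transcription factor XBP1.

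Sel1l itself read 9.45, 9.67 and 9.54 on the log2 scale in wild type and 8.70, 9.06 and 8.66 in the knockout, a change of -0.74 ± 0.11 (moderated standard error, SE; limma adjusted p = 0.018). That call was lost without wild type array 1 or 2 or knockout array 1 or 3, with an adjusted p up to 0.087, and which exons its probe set covers was not examined. All 12 markers of colon epithelium lay above the array median of 6.34 and none was called. Their summed log2 level was 141.85 to 143.38 in wild type and 141.72 to 142.67 in the knockout. Changes of these markers ran from -0.36 ± 0.10 (Slc26a3) to 0.28 ± 0.088 (Cdx2), so a sum can hide shifts in opposite directions. The 9 measured goblet cell markers summed to 107.01 to 107.57 in wild type and 107.32 to 108.16 in the knockout, with none called. Their changes ran from -0.12 (Zg16) to 0.28 (Spdef). Of 11 measured plasma and B cell markers, a lineage also rich in this machinery, 2 lay above the array median (Sdc1 and Xbp1, which epithelium shares), none was called, and the sums were 67.28 to 69.17 and 67.57 to 68.38. The plasma cell genes Jchain and Tnfrsf17 had means of 3.90 and 5.65. Markers of macrophages and dendritic cells (10 measured), T cells (7), fibroblasts and smooth muscle (10) and endothelium (6) held 2, 1, 4 and 1 genes above the array median. None of these was called, and their sums overlapped between genotypes, at 57.06 to 57.74 and 56.76 to 57.21, 39.02 to 39.85 and 38.55 to 39.83, 57.59 to 59.43 and 57.80 to 59.16, and 32.62 to 33.71 and 33.30 to 34.10 in wild type and knockout.

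In the knockout, 6 of the 31 measured genes rose and none fell at an adjusted p under 0.05, against 0.918% of all genes called higher and 0.712% called lower. They were Serp1, Sec61b, Srprb, Sec61a1, Spcs3 and Get4, with changes from 0.38 to 0.69 on the log2 scale. Without knockout array 1 the count was 1, without wild type array 1 it was 2, without wild type array 2 or knockout array 2 it was 3, without knockout array 3 it was 4, and without wild type array 3 it was 6. With the replicate number added to the fit as a block, the count was 3. Only Serp1 was both called and at least 1.5-fold higher, as were 0.296% of all genes. The median change of the 31 genes was 0.18, from -0.11 for Emc7 to 0.69 for Serp1, beside a median of 0.019 over all genes. In 19 of the 31 genes every knockout array lay above every wild type array, as it did in 11.4% of all genes, and in 2 of the 31 every knockout array lay below, as in 7.98% of all genes. An unadjusted p under 0.05 was found with the knockout higher in 19 of the 31 genes and 7.72% of all genes, and with the knockout lower in none of the 31 and 5.62% of all genes. With RNA of whole epithelium, a change in the number of cells of a type and a change in RNA per cell cannot be told apart.

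**Figure D1:**
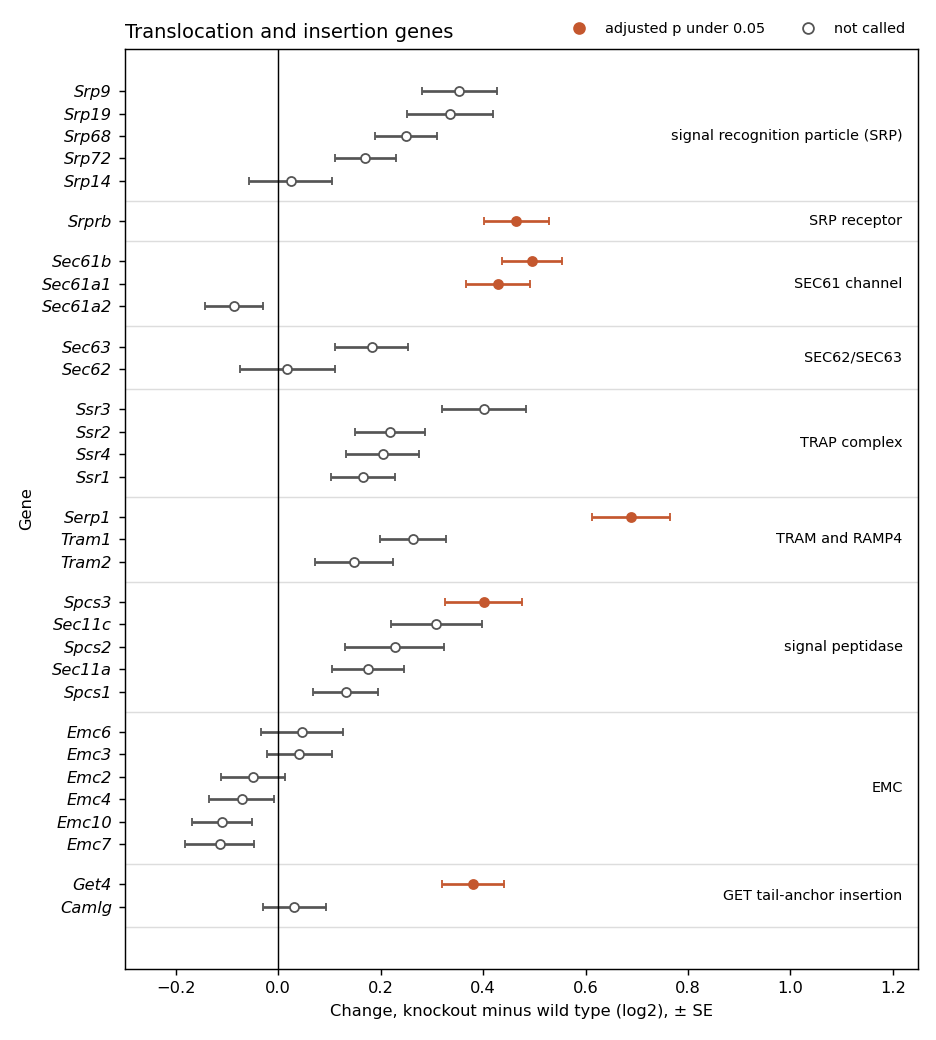
Log2 change (knockout minus wild type) of each measured gene with bars of ± 1 SE from limma (3 arrays per genotype), grouped by complex; filled points had an adjusted p under 0.05. The filled points run from 0.38 (Get4) to 0.69 (Serp1), and the 6 EMC genes sit between -0.11 and 0.046.

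Promoter windows from RefSeq (GRCm38.p6, 250 bases before to 50 after the start of a gene) were found for 25 of the 34 genes, 27 windows in all. The called genes Sec61a1 and Spcs3 had no window and were not searched. Windows of the other called genes, Serp1, Srprb, Get4 and Sec61b, are printed here, 5′ to 3′ on the gene's strand. They show where a short core of the XBP1 and ATF6 binding motifs falls in genes that rose. Capitals mark CCACGT or its reverse complement ACGTGG, and Get4 has a pair of windows for separate start sites.
Serp1, chr3:58525835-58526134, minus strand: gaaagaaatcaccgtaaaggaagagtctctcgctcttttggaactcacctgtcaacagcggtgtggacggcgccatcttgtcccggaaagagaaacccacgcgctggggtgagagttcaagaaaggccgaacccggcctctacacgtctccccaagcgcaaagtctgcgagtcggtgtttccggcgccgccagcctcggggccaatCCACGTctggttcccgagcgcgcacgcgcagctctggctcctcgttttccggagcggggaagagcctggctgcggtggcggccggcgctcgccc
Srprb, chr9:103202016-103202315, minus strand: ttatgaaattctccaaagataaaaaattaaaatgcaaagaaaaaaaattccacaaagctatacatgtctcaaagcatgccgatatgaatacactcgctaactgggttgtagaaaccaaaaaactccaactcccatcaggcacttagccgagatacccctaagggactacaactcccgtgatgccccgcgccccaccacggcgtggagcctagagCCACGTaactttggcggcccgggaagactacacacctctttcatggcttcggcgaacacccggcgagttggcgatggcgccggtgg
Get4 first window, chr5:139252074-139252373, plus strand: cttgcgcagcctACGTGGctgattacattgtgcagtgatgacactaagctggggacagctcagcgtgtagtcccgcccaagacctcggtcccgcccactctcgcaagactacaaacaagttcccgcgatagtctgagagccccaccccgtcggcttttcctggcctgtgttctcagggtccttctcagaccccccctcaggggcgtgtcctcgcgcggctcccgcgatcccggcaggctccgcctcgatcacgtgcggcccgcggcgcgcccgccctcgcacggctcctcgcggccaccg
Get4 second window, chr5:139253247-139253546, plus strand: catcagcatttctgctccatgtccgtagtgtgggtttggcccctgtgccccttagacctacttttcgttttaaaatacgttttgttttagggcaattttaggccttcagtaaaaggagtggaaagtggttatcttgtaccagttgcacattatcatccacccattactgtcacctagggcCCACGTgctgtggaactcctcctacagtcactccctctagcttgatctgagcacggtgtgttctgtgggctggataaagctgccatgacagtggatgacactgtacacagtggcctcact
Sec61b, chr4:47474411-47474710, plus strand: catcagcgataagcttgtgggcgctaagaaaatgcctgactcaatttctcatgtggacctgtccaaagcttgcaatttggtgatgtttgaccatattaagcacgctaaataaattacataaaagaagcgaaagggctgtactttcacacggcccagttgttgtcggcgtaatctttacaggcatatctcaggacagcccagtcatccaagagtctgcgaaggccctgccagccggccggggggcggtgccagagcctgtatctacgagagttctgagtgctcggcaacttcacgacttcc

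Counted from the start site, the first base of the match lay at -44 in Serp1, at -36 in Srprb, and at -238 and -70 in the windows of Get4, and the Sec61b window held none. The motifs searched on both strands were the short core CCACGT, the unfolded protein response element core TGACGTGG, whose reverse complement contains the short core, the cAMP response element TGACGTCA, the ER stress response element (CCAAT, 9 bases, CCACG) and its second form (ATTGG, 1 base, CCACG). Both forms end in the first letters of the short core, so an element followed by T also holds it. The short core was in windows of 7 of the 25 genes, or 28.0%, against 9.40% of all 27025 genes with a window. Besides Serp1, Srprb and Get4, these were Ssr1, Ssr3, Sec63 and Spcs1. No window held it among 6 EMC genes, 4 SRP genes or 3 SEC61 genes. These are not the same genes as those measured. They include Emc1, Srp54a and Sec61g, which have no value, and lack Emc2, Srp19, Srp68 and Sec61a1, which had no window. No window of the 25 genes held the longer elements TGACGTGG or either form of the ER stress response element, which were in 0.714%, 0.137% and 0.0444% of all genes. Among ER chaperone genes with a window the short core was in 3 of 11, or 27.3%. The first form of the ER stress response element was in 6 of these 11 genes (Calr, Canx, Dnajc3, Hsp90b1, Hspa5 and Pdia6). TGACGTCA was found in 1 gene of the set, Emc10, and in 2.03% of all genes. A match describes letters in this window and says nothing of binding.

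Targeting to the ER was read from genes of the particle and of its receptor, and a difference between them was not tested. Srprb, the membrane-anchored β subunit of the SRP receptor, read 8.59, 8.68 and 8.63 in wild type and 9.18, 9.06 and 9.06 in the knockout. Every knockout array was above every wild type array, and the gene rose by 0.46 ± 0.064 (adjusted p = 0.013), a call lost without wild type array 1 (adjusted p = 0.061) or knockout array 1 (adjusted p = 0.063). None of the 5 measured SRP genes was called, although 4 had an unadjusted p under 0.05 with the knockout higher (7.72% of all genes), and the median change was 0.25. Srp9, which with Srp14 forms the part of SRP that slows translation, had the largest change. It read 8.69, 8.88 and 8.89 in wild type and 9.22, 9.17 and 9.12 in the knockout, groups that did not overlap (0.35 ± 0.073, adjusted p = 0.061). A second, dimmer Srp9 probe set changed by 0.44 ± 0.081 and was called when every probe set was tested by itself (adjusted p = 0.038). Where in the genome either Srp9 probe set maps was not examined, so the brighter one may not read the gene's own locus. Srp14, the partner of Srp9, differed by 0.024 ± 0.080 with overlapping groups (adjusted p = 0.94). Srp19, which helps the particle assemble, differed by 0.33 ± 0.084 (adjusted p = 0.12), and the paired proteins of the SRP body, Srp68 and Srp72, by 0.25 ± 0.061 and 0.17 ± 0.060 (adjusted p = 0.11 and 0.26).

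Within the SEC61 channel, the pore gene Sec61a1 and the small β subunit gene Sec61b rose, whereas Sec61a2, the paralog of the pore gene, was not called. Sec61a1 read 11.61, 11.73 and 11.70 in wild type arrays and 12.16, 12.07 and 12.08 in knockout arrays. The lowest knockout array lay above the highest wild type array, and the change was 0.43 ± 0.063 (adjusted p = 0.017). Leaving out wild type array 1 or 2 or knockout array 1 or 2 ended this call, with an adjusted p up to 0.080. Sec61b read 8.60, 8.65 and 8.71 in wild type and 9.18, 9.12 and 9.15 in the knockout. The groups stood well apart, with a change of 0.50 ± 0.059 (adjusted p = 0.0091), and the adjusted p was 0.052 without knockout array 1. Its other probe sets gave 0.38 ± 0.059 and 0.27 ± 0.055, with adjusted p values of 0.022 and 0.056 over all probe sets. Which of the Sec61b probe sets maps to the gene's own locus was not examined. Sec61a2 read 8.22, 8.21 and 8.20 in wild type and 8.09, 8.17 and 8.10 in the knockout. All knockout arrays were below the wild type arrays, but the difference of -0.086 ± 0.057 did not pass the test (adjusted p = 0.58).

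The partners that help post-translational entry, Sec62 and Sec63, were not called. Sec63, a membrane J-domain protein that recruits the chaperone BiP to the channel, read 8.98, 9.09 and 9.02 in wild type and 9.27, 9.27 and 9.10 in the knockout. The knockout arrays were narrowly the higher ones, at a difference of 0.18 ± 0.071 (adjusted p = 0.31). Sec62 differed by 0.018 ± 0.092 with overlapping groups (adjusted p = 0.96).

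Serp1, a gene with the short core in its promoter window, encodes RAMP4, a small tail-anchored protein that binds the channel during translocation. It had the largest change in the set and ranked 62 from the top among 19936 genes by its change. It read 10.71, 10.88 and 10.92 in wild type and 11.61, 11.47 and 11.48 in the knockout. Each knockout array exceeded each wild type array by a wide margin, and the mean rose from 10.83 ± 0.11 to 11.52 ± 0.077 (SD, n = 3 each), which is 1.61-fold (0.69 ± 0.076, adjusted p = 0.0069). It was the only one of the 6 called genes called in all 6 fits that left out an array, at an adjusted p of at most 0.039. Tram1, a translocating chain-associated membrane protein, read 11.05, 11.16 and 11.17 in wild type and 11.45, 11.37 and 11.34 in the knockout. Here too the groups were separate, yet the difference of 0.26 ± 0.065 was not called (adjusted p = 0.11). Its paralog Tram2 read 6.88, 6.64 and 6.70 against 6.83, 6.91 and 6.92, groups that overlapped (0.15 ± 0.076, adjusted p = 0.46).

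All 4 genes of TRAP, the translocon-associated complex that assists weak signal sequences, had non-overlapping groups with the knockout higher and an unadjusted p under 0.05, where the shares of all genes were 11.4% and 7.72%, but none was called over all genes. The median change was 0.21. Ssr3, its γ subunit, read 10.10, 10.23 and 10.30 in wild type and 10.75, 10.58 and 10.51 in the knockout. No arrays overlapped, and the difference was 0.40 ± 0.083 (adjusted p = 0.061). Ssr2 (0.22 ± 0.068), Ssr4 (0.20 ± 0.071) and Ssr1 (0.17 ± 0.062), the β, δ and α subunits, had adjusted p values of 0.20, 0.26 and 0.29.

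In signal peptidase 1 of 5 genes rose, against 0.918% of all genes, and the median change was 0.23. Spcs3, a subunit needed for cleavage, read 9.22, 9.31 and 9.40 in wild type and 9.82, 9.67 and 9.65 in the knockout. The knockout arrays were all higher, and the change was 0.40 ± 0.075 (adjusted p = 0.042). The call held with wild type array 3 left out but with no other array left out, where the adjusted p ranged up to 0.15, and it also ended when each array was centred on its median (adjusted p = 0.057). The catalytic subunits are encoded by the paralogs Sec11a and Sec11c, neither of which was called. Sec11c read 9.09, 9.35 and 9.41 in wild type and 9.64, 9.56 and 9.57 in the knockout (0.31 ± 0.089, adjusted p = 0.17). Sec11a read 8.97, 9.12 and 9.14 in wild type and 9.29, 9.28 and 9.18 in the knockout (0.18 ± 0.070, adjusted p = 0.33). Both had separate groups, with wild type array 1 the lowest. The accessory subunit genes Spcs2 (0.23 ± 0.097) and Spcs1 (0.13 ± 0.064) had adjusted p values of 0.36 and 0.43.

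**Figure D2:**
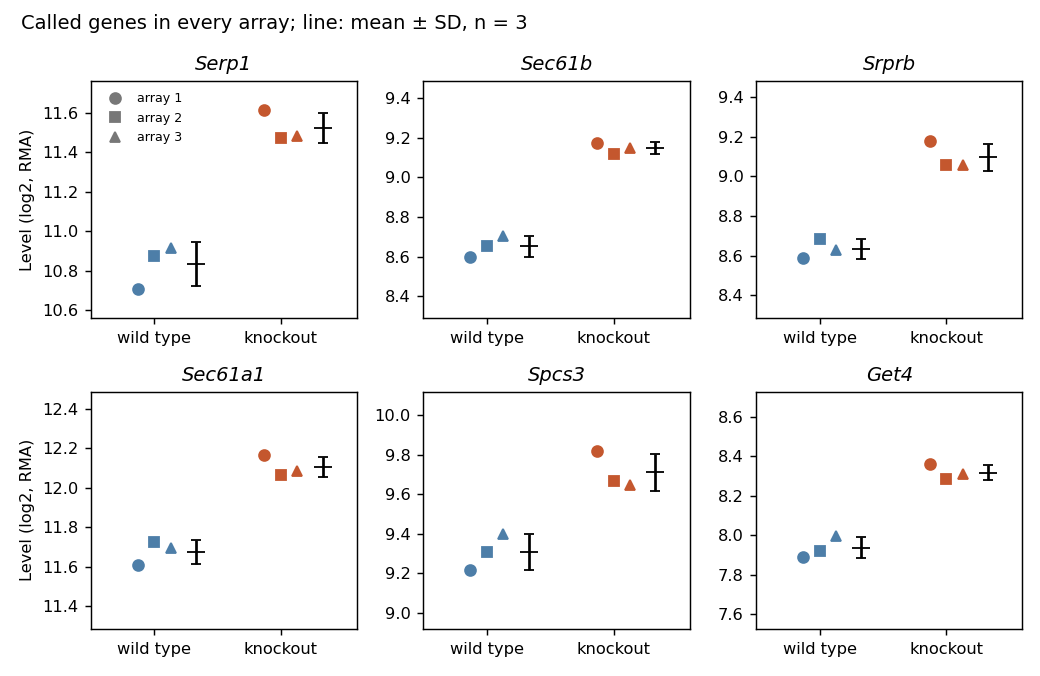
Log2 RMA level of the 6 called genes in each array (blue wild type, orange knockout; circle, square and triangle are arrays 1, 2 and 3), with the mean ± SD of 3 arrays in black; every panel spans the same log2 range. In each panel all knockout arrays lie above all wild type arrays, and knockout array 1 is the highest.

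EMC showed no called gene among 6, where 0.918% of all genes were called higher and 0.712% lower. None of the 6 had an unadjusted p under 0.05, found in 7.72% of all genes with the knockout higher and 5.62% with it lower. The median change of the 6 measured EMC genes was -0.061, with 2 positive and 4 negative values. This median stayed between -0.079 and -0.031 with each array left out in turn. Emc7, a subunit on the lumenal side, had the largest difference, reading 9.53, 9.65 and 9.64 in wild type and 9.57, 9.43 and 9.48 in the knockout. Its groups overlapped through wild type array 1 and knockout array 1 (-0.11 ± 0.067, adjusted p = 0.53). Emc10, another lumenal subunit, read 9.08, 9.13 and 9.15 against 8.99, 8.98 and 9.06 and did not overlap (-0.11 ± 0.059, adjusted p = 0.48). Emc3, the subunit related to bacterial insertases, differed by 0.041 (95% interval -0.11 to 0.19), and its partner in the membrane, Emc6, by 0.046 (-0.14 to 0.23). Emc2, a cytosolic scaffold subunit, differed by -0.050 (-0.19 to 0.094), and Emc4 by -0.072 (-0.22 to 0.074). The other EMC subunit genes Mmgt1 (-0.10), Emc8 (0.015) and Emc9 (0.11), which were not among the 34, were not called either.

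Of the GET genes, Get4, a cytosolic subunit of the complex that hands tail-anchored proteins to their targeting factor, rose. It read 7.89, 7.92 and 8.00 in wild type and 8.36, 8.28 and 8.31 in the knockout. The groups were far apart relative to their spread, and the change was 0.38 ± 0.060 (adjusted p = 0.022). The call ended with each array left out except wild type array 3, with an adjusted p up to 0.10. Camlg, a subunit of the receptor at the ER membrane, differed by 0.031 ± 0.061 with overlapping groups (adjusted p = 0.88). Further genes of the route were not called, among them the receptor partner Get1 (0.058), the targeting ATPase Get3 (0.11), and Bag6 (0.017) and Sgta (0.037), which hold tail-anchored proteins before they are handed on.

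The mean deviation of a complex from its genes' 6-array means was lower in all wild type than in all knockout arrays for SRP, its receptor, SEC61, TRAP, TRAM with RAMP4, signal peptidase and GET, and overlapped between genotypes for EMC and for SEC62 with SEC63. For TRAP the wild type arrays stood at -0.20, -0.11 and -0.060 and the knockout arrays at 0.22, 0.078 and 0.079. For EMC they stood at -0.020, 0.062 and 0.022 and at 0.026, -0.050 and -0.040. Some of these means cover 1 gene (the SRP receptor) or 2 genes (GET, and SEC62 with SEC63) and so repeat those genes' own values, and the difference between complexes was not tested.

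Within a genotype the genes moved together by array. Knockout array 1 was the highest knockout array for 24 of the 31 genes, a position it held for 30.5% of all genes. Wild type array 1 was the lowest wild type array for 26 of the 31, against 29.0% of all genes. The same arrays were the extreme ones in the mean of 12 ER chaperone genes, whose mean deviations were -0.40, -0.23 and -0.34 in wild type and 0.38, 0.30 and 0.29 in the knockout. They were also the extreme ones in the means of the oligosaccharyltransferase genes (-0.20 and 0.16) and of the mitochondrial import genes (-0.041 and 0.046). For the COPII coat genes wild type array 3 (-0.12) was the lowest and knockout array 2 (0.15) the highest. What set these arrays apart was not tested.

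**Figure D3:**
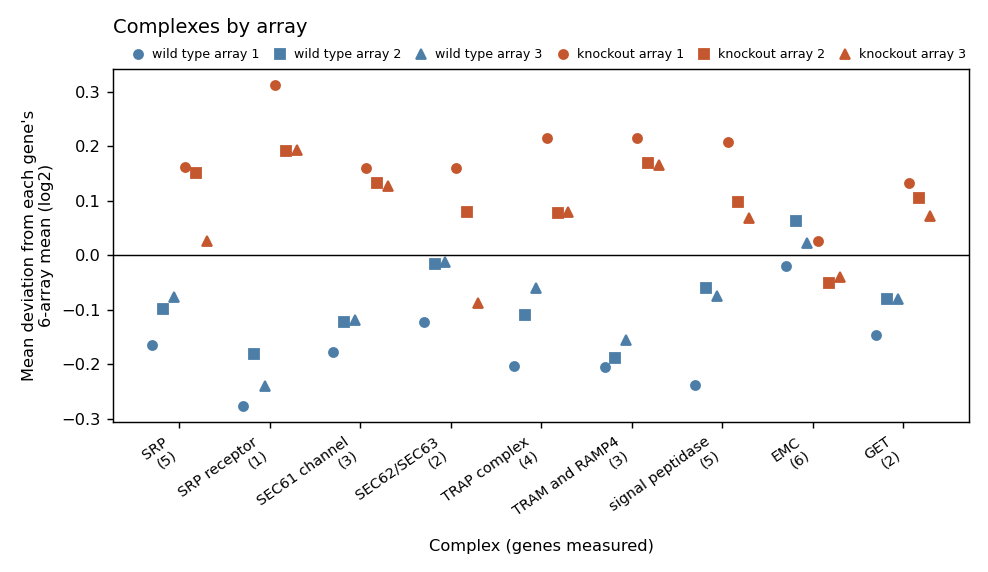
Mean deviation, per array, of the genes of each complex from their own mean over 6 arrays (log2 scale; blue wild type, orange knockout; the number of measured genes in brackets). Wild type and knockout points are separate for SRP, its receptor, SEC61, TRAP, TRAM with RAMP4, signal peptidase and GET, and mix for EMC and for SEC62/SEC63.

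The set holds 3 pairs of paralogs, and the change of one was compared with that of the other through their difference within each array. For Sec61a1 minus Sec61a2 this difference was 3.39, 3.52 and 3.50 in wild type and 4.07, 3.90 and 3.98 in the knockout. The groups were separate, and the changes of the pore genes differed by 0.52 ± 0.064, with values of 0.47 to 0.56 with an array left out. For these pairs ± is an ordinary SE from the variance within each group, not the moderated SE of limma. For Sec11a minus Sec11c the difference was -0.12, -0.23 and -0.27 in wild type and -0.35, -0.28 and -0.38 in the knockout, a shift of -0.13 ± 0.053 towards Sec11c. Leaving out an array gave -0.16 to -0.090, the smallest size being that without wild type array 1. For Tram1 minus Tram2 the groups overlapped, at 0.11 ± 0.13, and the value was 0.0053 without wild type array 1 and 0.052 without knockout array 1. An exact two-sided permutation test over the arrays gave p = 0.1 for the SEC61 and the SEC11 pair and p = 0.6 for the TRAM pair (0.15, 0.15 and 0.6 adjusted over the 3 pairs). With 3 arrays per group 0.1 is the smallest p this test can give, so no pair could pass.

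Of 26 measured genes of targeting and insertion outside the 34, with a median change of 0.058, 1 rose, against 0.918% of all genes. This was Srpr, the α subunit of the SRP receptor and partner of Srprb (10.16 to 10.65, 0.49 ± 0.087, adjusted p = 0.033), a call that ended with each array left out in turn (adjusted p up to 0.12). Hm13, the signal peptide peptidase that clears cut signal sequences (0.28 ± 0.064, adjusted p = 0.089), and Lrrc59, a ribosome-binding ER protein (0.33 ± 0.085, adjusted p = 0.13), were not called. Genes of the multipass translocon, Tmco1 (-0.034), Ccdc47 (0.041), Nomo1 (0.011), Ncln (-0.076), Tmem147 (-0.0048) and Wdr83os (0.058), had adjusted p values of 0.64 or more.

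The counts called in the next lists stand beside a share of 0.918% of all genes called higher. The oligosaccharyltransferase, which adds N-glycans to chains leaving the channel, had 2 of 12 genes higher, Ost4 (0.42 ± 0.061, adjusted p = 0.016) and Stt3a (0.38 ± 0.065, adjusted p = 0.028), at a median of 0.23. Both calls ended without wild type array 1 or 2 or knockout array 1 or 2, that of Stt3a also without the other arrays, with adjusted p up to 0.079 and 0.12. The COPII coat, which carries cargo out of the ER, had 4 of 13 higher at a median of 0.28, with Sec24d at 0.63 ± 0.064 (adjusted p = 0.0064), Sec16a at 0.38, Sec13 at 0.33 and Sar1a at 0.33. Sec24d alone of these was called in every fit that left out an array. Sec16a kept it only without knockout array 3 and Sar1a only without wild type array 3, while Sec13 lost it each time, with adjusted p up to 0.097, 0.14 and 0.12. Among 12 ER chaperones and oxidoreductases 9 rose, at a median of 0.66, among them Sdf2l1 (1.17), Pdia6 (0.94), Hyou1 (0.87), Hspa5, which encodes BiP (0.85), Hsp90b1 (0.68) and Dnajc3 (0.63). Genes of protein import into mitochondria, a separate organelle with its own translocons, had 0 of 20 called by limma, at a median of 0.016. An unadjusted p under 0.05 with the knockout higher was found in 2 of the 20, against 7.72% of all genes. In 5 of the 20 every knockout array lay above every wild type array, as in 11.4% of all genes. The largest difference in this list was that of Timm17b, an inner membrane translocase subunit, at 0.31 ± 0.063 (adjusted p = 0.061). These lists are described here and the differences between them were not tested.

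**Figure D4:**
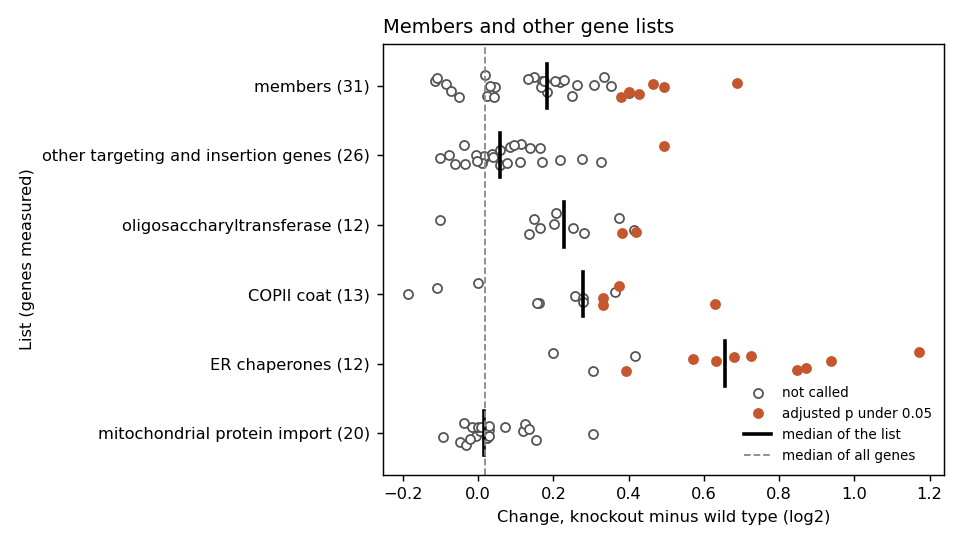
Log2 change (knockout minus wild type) of each gene in the 31 measured genes (members) and 5 other lists; filled points had an adjusted p under 0.05, black bars are list medians, and the dashed line is the median of all genes (0.019). List medians run from 0.016 for mitochondrial import to 0.66 for ER chaperones, with the members at 0.18; vertical scatter within a list carries no meaning.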

How the data were processed

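The values used are the submitters' table of 35556 probe sets on 6 arrays. The authors deposited log2 values, for which the submitters' processing notes name RMA. The program behind it, its version and a build were not given in the sources used here. That the scale is log2 follows from the values' range, and array medians lay between 6.32 and 6.36. The platform annotation named 1 gene for 21789 probe sets, several for 1621 and none for 12146. Symbols were updated through RefSeq (GRCm38.p6), by gene identifier for 21698 and by accession for 3. The brightest probe set on average stood for each of 19936 genes, with no filter on dim ones. RMA pulls arrays to a common distribution, so a shift shared by most genes would not be seen.

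The test between genotypes was that of limma (version 3.58.1, under R 4.3.3), using lmFit then eBayes with no term but genotype. It was two-sided, adjusted by Benjamini-Hochberg over all genes, and a gene was called where the adjusted p was under 0.05. A change is the knockout mean minus the wild type mean. The fit was tested on simulated data with noise drawn independently for each gene, which does not cover genes that move together by array. Joins and plots used Python 3.11.15, pandas 2.3.3 and matplotlib 3.10.9. The genes and lists were chosen with earlier results of these data known. Every called gene of the 34 is given in every array, with the most changed gene of each complex and the paralogs, and up to 6 called genes of each other list, those with the smallest p. Uncalled genes of these lists were named for their role, after their values were seen. No scan date or other batch label was used here. Alternatives were other normalizations, filters, priors, array weights, probe set rules, a replicate number block, a fold minimum and each array left out.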

Additional observations from a re-analysis of the deposited data

How the results depend on the processing

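The count of 6 genes called higher out of 31 was 8 with quantile normalization or without the dimmest 25% of genes, 5 with median centring, 6 with a robust prior, and 7 with array weights, with the mean of all probe sets or with every probe set tested. It was 11 without the dimmest 50% of genes and 10 with an intensity trend, settings under which 598 and 614 of all genes were called against 325. Requiring at least 1.5-fold left 1. With each array left out it ran from 1 to 6, with 69 to 303 genes called overall. No gene of the set was called lower under any of these settings, every probe set aside. With every probe set aside, Srp9 and Ssr3 were each called under 5 alternatives, Srp68 and Tram1 under 2 and Srp19 under 1. Srp9 was also called, through its dimmer probe set, when every probe set was tested. The median change of 0.18 ran from 0.16 to 0.22 over all its alternatives, and that of EMC was negative with each array left out. Among the other lists, the COPII count of 4 was 8 without the dimmest 50% of genes or with an intensity trend, 6 with quantile normalization and 1 with the replicate block. The oligosaccharyltransferase count of 2 was 4 under those 3 settings and 0 with the block, that of other targeting genes was 1, 3 with the trend and 0 with the block, and that of mitochondrial import was 0, and 1 under each of 5 settings. Sel1l was not called in 4 of the 6 fits with an array left out, with changes over the 6 fits from -0.87 to -0.67.

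Whether the replicate numbers in the titles pair the arrays could not be decided from the values. Correlations of deviations between same-numbered arrays were -0.10, 0.15 and 0.15. Between arrays of different number they ran from -0.26 to 0.12. With the replicate block 3 genes were called (Serp1, Sec61b and Srprb), and Sec61a1, Get4 and Spcs3 had adjusted p values of 0.056, 0.065 and 0.11. The sign turned only for genes that were not called. These were Srp14 without knockout array 1 (-0.039), Sec62 with median centring (-0.0039), without wild type array 1 (-0.029) and without knockout array 1 (-0.065), and Emc6 without wild type array 3 (-0.0039) and without knockout array 1 (-0.015). With an array left out, changes reached 0.10 for Srp14, 0.099 for Sec62 and 0.10 for Emc6. The number of arrays limits the precision, and the cause of lost calls was not tested.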
